A study of Mus musculus with 6 samples.

Results

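The 10 genes described here handle iron and zinc in the cell or buffer zinc as metallothioneins, and they were taken by gene symbol from a count table of 55335 genes. They comprised the metallothioneins Mt1 and Mt2, the zinc-sensing transcription factor Mtf1, the zinc transporters Slc39a14 and Slc30a1, the iron storage subunit Fth1, the iron exporter Slc40a1, the transferrin receptor Tfrc, and the divalent metal transporters Slc11a1 and Slc11a2. Each symbol matched 1 row, and all 10 passed the filter on low counts. The counts came from total RNA of bone marrow-derived macrophages (BMDMs) of young adult male C57BL/6 mice, grown in medium conditioned by L929 cells and then given PBS (Control, 3 libraries) or lipopolysaccharide (LPS, 3 libraries) for 1 h, LPS being a cell wall component of Gram-negative bacteria that macrophages sense through TLR4. Neither group carried a further genetic change or agent that the labels name. The labels do not say whether the libraries of a group came from separate cultures or mice, so each p-value below measures only the spread between these libraries.

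Macrophages take up iron through the transferrin receptor and from engulfed red cells, store it in ferritin, and export it through ferroportin, the product of Slc40a1. Zinc enters the cytosol through ZIP proteins (Slc39a family) and leaves it through ZnT proteins (Slc30a family), and metallothioneins bind the cytosolic excess through their cysteines. MTF-1, the product of Mtf1, binds metal response elements (MREs) when zinc rises, and iron regulatory proteins bind a stem-loop, the iron-responsive element (IRE), when iron is low.

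RefSeq start-site windows on GRCm38.p6, each running from 250 bases before the start site to 50 bases after it, were matched for 7 of the 10 genes, and for Slc11a2, Slc40a1 and Slc39a14 none was matched. The MRE core was searched on both strands as TGCACNC or TGCGCNC, where N is any base. The windows of Mt1, Mt2 and Slc30a1 are printed 5′ to 3′ from position -250 to 30, because they hold MRE cores and their genes behaved differently after LPS, and capitals mark the cores on either strand.
Mt1 (chr8:94178839-94179118, + strand): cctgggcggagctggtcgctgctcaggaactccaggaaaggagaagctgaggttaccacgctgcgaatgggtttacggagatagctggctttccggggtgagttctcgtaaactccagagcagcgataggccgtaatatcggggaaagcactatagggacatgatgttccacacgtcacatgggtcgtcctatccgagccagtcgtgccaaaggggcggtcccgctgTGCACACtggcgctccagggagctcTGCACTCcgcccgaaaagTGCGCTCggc
Mt2 (chr8:94172368-94172647, + strand): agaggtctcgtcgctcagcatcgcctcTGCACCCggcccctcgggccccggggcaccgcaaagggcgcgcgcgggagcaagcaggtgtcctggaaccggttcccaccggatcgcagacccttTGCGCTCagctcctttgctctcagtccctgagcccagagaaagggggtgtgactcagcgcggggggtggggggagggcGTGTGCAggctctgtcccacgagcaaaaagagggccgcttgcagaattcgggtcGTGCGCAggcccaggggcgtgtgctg
Slc30a1 (chr1:191906531-191906810, + strand): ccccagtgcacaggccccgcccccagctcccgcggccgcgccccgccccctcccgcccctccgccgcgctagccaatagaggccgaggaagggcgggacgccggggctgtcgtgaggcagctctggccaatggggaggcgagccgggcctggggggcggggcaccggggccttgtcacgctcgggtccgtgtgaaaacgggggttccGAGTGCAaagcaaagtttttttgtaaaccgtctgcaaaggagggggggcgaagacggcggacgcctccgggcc

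The Mt1 window held 3 cores, beginning at positions -23, 3 and 21 from the RefSeq start site, all on the plus strand. The Mt2 window held 4 cores, with those at -223 and -128 on the plus strand and those at -50 and 5 on the minus strand. The Slc30a1 window held 2 cores, at -43 and, past the printed stretch, at 31, both on the minus strand. A first window of Tfrc held 2 cores that overlap each other, at -53 and -50, and the windows of Fth1, Mtf1 and Slc11a1 held 0. Of all 32851 windows, 25.7% held at least 1 core, 7.11% at least 2, 1.97% at least 3 and 0.517% at least 4. The antioxidant response element core TGACNNNGC, held by 12.4% of all windows, was found in Mt2 at -79 and in Slc30a1 at -82, and in Mt2 it overlapped the AP-1 consensus TGANTCA, which 7.81% of windows held. The NF-kB consensus (8.46% of windows) and the STAT consensus TTCNNNGAA (8.30%) had no match in the windows of these 7 genes. These matches describe letters in a window and no binding was measured. The number and positions of the cores depend on the RefSeq start site that set each window. Cores outside the windows were not counted, so the arrangement in Mt1 and Mt2 cannot be compared beyond these stretches.

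**Figure D1:**
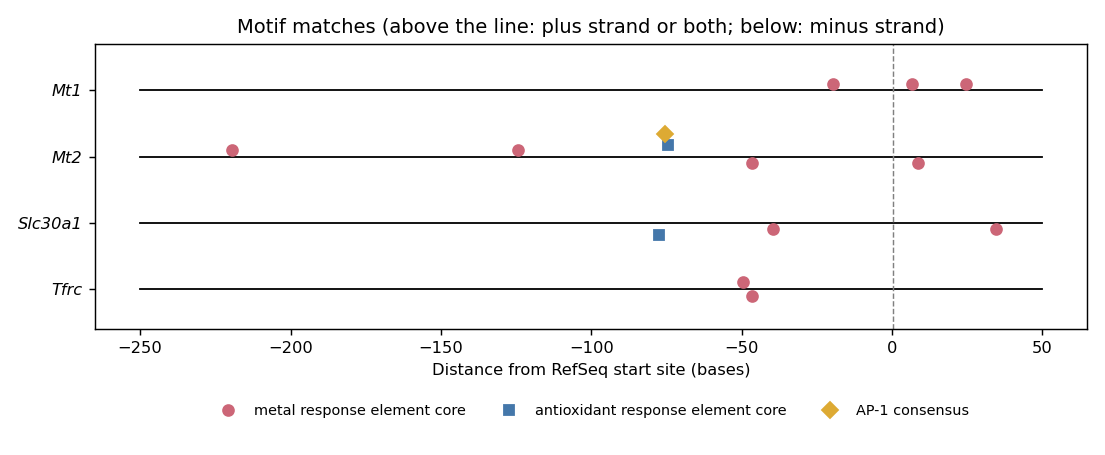
Motif matches in the start-site windows of Mt1, Mt2, Slc30a1 and Tfrc (first window), plotted by distance in bases from the RefSeq start site (dashed line), with plus-strand matches above each line and minus-strand matches below it. Within these windows the 4 MRE cores of Mt2 begin between -223 and 5 and the 3 of Mt1 between -23 and 21. Cores outside a window were not counted, and positions would differ from another start site of the same gene.

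The same count table showed that the cells had responded to LPS and were macrophages by their markers. Library totals ranged from 37787611 to 41516330 counts, and 15687 genes were tested with edgeR. Tnf, the gene of the cytokine TNF, went from 20.3 ± 1.19 to 2302 ± 49.8 normalised CPM (counts divided by the library size after scaling by the trimmed mean of M-values, TMM; mean ± SD, n = 3), and Il1b and Cxcl2 had log2 fold changes of 11.77 and 9.97. The summed level of 6 macrophage markers was 29160 to 30420 CPM in Control and 32000 to 32350 CPM in LPS libraries, and none of the 6 passed both criteria for a change. Of 4 dendritic cell markers, 4 rose (Flt3, Zbtb46, Xcr1 and Siglech), beside 10.5% of all tested genes. These 4 markers had a summed level of 3.15 to 4.01 CPM in Control and 9.62 to 10.61 CPM in LPS. Xcr1 was counted only 2, 1 and 2 times in Control, close to the lower limit of detection. The summed level of 7 neutrophil markers was 40.8 to 43.6 CPM in Control and 52.7 to 56.8 CPM in LPS. Erythroid markers summed to at most 0.310 CPM in any library, with Hba-a2 at 0 in all, and B cell, T cell and fibroblast markers to at most 3.40, 0.558 and 15.5 CPM. The part of these other cells in the results below was not tested. In bulk RNA, a different number of cells of a type cannot be told apart from a different amount of RNA per cell.

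A gene was called as risen or fallen when edgeR's adjusted p (quasi-likelihood, Benjamini-Hochberg) was under 0.05 among all 15687 genes and its log2 fold change was also beyond 1 in either direction. Of the 10 metal-handling genes, 3 rose (Mt1, Mt2 and Slc39a14) and 0 fell, beside 10.5% of all tested genes that rose and 10.4% that fell. By the adjusted p alone 7 were higher and 1 (Slc30a1) was lower, beside 32.9% and 34.9% of all tested genes with the same TMM scaling. With scaling by library size alone 4 were higher and 4 lower by the adjusted p. The share of all tested genes by the adjusted p is not given for that scaling, under which their median log2 fold change was -0.42. The median log2 fold change was 0.36 over the 10 genes and -0.01 over all genes tested. The smaller differences depended on the scaling. TMM gave a mean factor of 1.15 to Control and 0.869 to LPS libraries, and scaling by library size alone moved the median of all tested genes by -0.40 on the log2 scale. With library size alone, 1213 genes rose and 2964 fell over the whole table, against 1653 and 1624 with TMM.

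**Figure D2:**
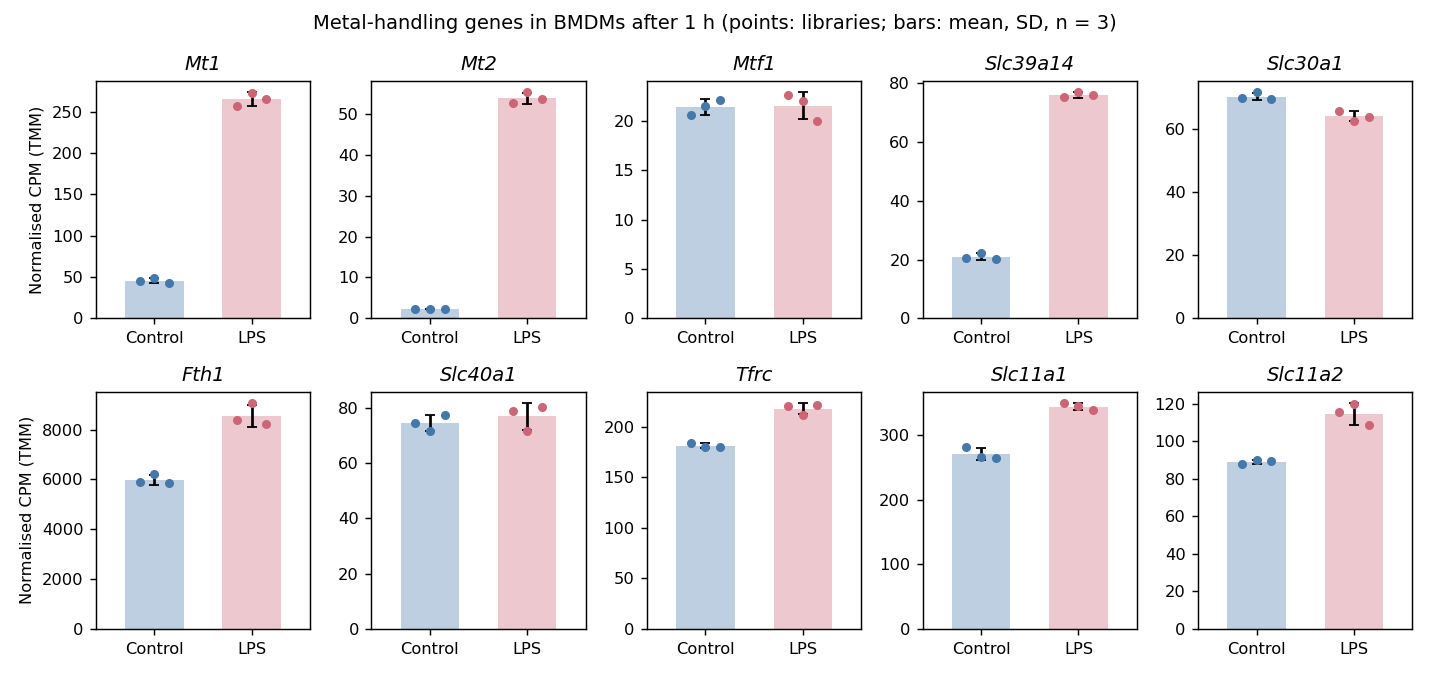
Normalised CPM of each of the 10 genes in the 3 Control and 3 LPS libraries (points), with the group mean as a bar from 0 and the SD as an error bar. Control and LPS points are far apart for Mt1, Mt2 and Slc39a14, closer but not overlapping for Slc30a1, Fth1, Tfrc, Slc11a1 and Slc11a2, and overlapping for Mtf1 and Slc40a1. The share of all tested genes without overlap was not counted, but 32.9% were higher and 34.9% lower by edgeR's adjusted p. Under scaling by library size alone the fold changes of Tfrc, Slc11a1 and Slc11a2 are below 0 on the log2 scale.

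The metallothioneins had the greatest fold changes of the 10 genes. Mt2 (ENSMUSG00000031762.7, chr8:94172664-94173568, plus strand) lies 5513 bp before Mt1 (ENSMUSG00000031765.8, chr8:94179082-94180327, plus strand) on GRCm38. Mt2 was counted 112, 105 and 108 times in Control and 1769, 1806 and 1824 times in LPS libraries. All LPS libraries stood far above all Control libraries, and the spread within each group was small. In normalised CPM, Mt2 went from 2.34 ± 0.0141 to 53.9 ± 1.33 (SD, n = 3), a ratio of means of 23.0, with a log2 fold change of 4.52 (SE 0.06, edgeR's adjusted p = 1.53e-20). This placed Mt2 at position 237 of 15687 when tested genes were ordered from the greatest rise. Over the 16 alternative settings its log2 fold change stayed between 4.12 and 4.54.

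Mt1 encodes the other ubiquitous metallothionein and was already well expressed without LPS. Mt1 was counted 2146, 2184 and 1941 times in Control and 8611, 8911 and 9039 times in LPS libraries, again with no overlap. Its normalised level rose from 45.2 ± 3.14 to 265 ± 8.23 CPM (SD, n = 3), a ratio of means of 5.87 and a log2 fold change of 2.55 (SE 0.04, edgeR's adjusted p = 6.08e-19). The range over the 16 alternatives was 2.15 to 2.61. The log2 ratio of Mt2 to Mt1 counts within a library, which no scaling affects, was -4.26, -4.38 and -4.17 in Control and -2.28, -2.30 and -2.31 in LPS, so that the ratio was 3.92-fold higher in LPS. The exact two-sided permutation test gave p = 0.1, the smallest that 3 against 3 libraries allow, and 0.133 after Benjamini-Hochberg adjustment over 4 gene pairs.

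Overlap with other genes limits these counts in part. Exons of Mt2 share 432 bp with Gm45774, an annotated antisense gene, which was counted 2, 2 and 3 times in Control and 63, 75 and 76 times in LPS (log2 fold change 5.32, SE 0.31, edgeR's adjusted p = 3.44e-11). The strand setting of the authors' counting is not given in the sources used here, so reads of Mt2 and Gm45774 may not be told apart. Reads in the shared part of the 588 bp of Mt2 exon may also have been left out of both genes. The low counts of Gm45774 therefore set no bound on this effect, and the Mt2 level per kilobase and the Mt2 to Mt1 ratio carry the same limit. No stretch of read length in Mt1 or Mt2 transcripts was shared with a transcript of another gene. The other 2 annotated metallothioneins, Mt3 and Mt4, reached at most 1 count per library and were not tested.

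Mtf1 (ENSMUSG00000028890.13, chr4:124802104-124849800, plus strand), whose product drives metallothionein transcription through MREs, did not pass the adjusted p. Its counts were 982, 973 and 1023 in Control and 759, 720 and 681 in LPS libraries. After TMM scaling the groups overlapped, at 20.6, 21.5 and 22.2 CPM in Control and 22.6, 22.1 and 20.0 CPM in LPS. The log2 fold change was 0.01 (SE 0.06, edgeR's adjusted p = 0.913), and it was -0.40 with library size alone (edgeR's adjusted p = 6.52e-06), close to the -0.42 of the median gene under that scaling. Its exons share 721 bp with 1110065P20Rik on the opposite strand, which had 125 to 289 counts.

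Slc39a14 and Slc30a1, an importer and an exporter of zinc, went in opposite directions. Slc39a14 (ENSMUSG00000022094.15, chr14:70303469-70351425, minus strand) encodes ZIP14, which brings zinc and also non-transferrin iron into the cytosol. Slc39a14 was counted 982, 1003 and 924 times in Control and 2524, 2512 and 2586 times in LPS libraries. The groups lay far apart, and normalised CPM rose from 21.0 ± 1.12 to 76.1 ± 0.878 (SD, n = 3), a ratio of means of 3.63 and a log2 fold change of 1.86 (SE 0.04, edgeR's adjusted p = 6.89e-17). The alternatives gave 1.46 to 1.90.

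Slc30a1 (ENSMUSG00000037434.7, chr1:191906767-191913247, plus strand) encodes ZnT1, the zinc exporter of the plasma membrane, which is a textbook MTF-1 target along with the metallothioneins. Its counts were 3329, 3244 and 3209 in Control and 2215, 2051 and 2180 in LPS libraries. Normalised CPM were 69.9, 71.8 and 69.6 in Control and 66.0, 62.8 and 64.1 in LPS, so every LPS library was below every Control library. The difference was small, with a log2 fold change of -0.13 (SE 0.04, edgeR's adjusted p = 0.00409), and did not reach the fold criterion. It kept its sign in all 16 alternatives, from -0.54 to -0.11. The printed windows were chosen because their genes behaved differently after LPS, so this difference between Slc30a1 and the metallothioneins is no result about MRE cores. Tfrc, whose first window also held 2 cores, had a log2 fold change of 0.27 with TMM and -0.14 with library size alone. Slc30a1 shares 468 bp of exon with the antisense gene 1700034H15Rik, which was counted 16, 35 and 23 times in Control and 6, 6 and 7 times in LPS.

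The ratio of the importer to the exporter did not overlap between the groups. The log2 ratio of Slc39a14 to Slc30a1 counts was -1.76, -1.69 and -1.80 in Control and 0.19, 0.29 and 0.25 in LPS, a ratio 3.98-fold higher in LPS. All 3 LPS values exceeded all 3 Control values, with an exact two-sided permutation p = 0.1, the smallest possible here, and 0.133 after adjustment over the 4 pairs.

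Fth1, Slc40a1 and Tfrc are classical targets of the iron regulatory proteins. Their IREs were looked for in the annotated untranslated regions (UTRs) because they tie these mRNAs to the same regulator. The search was for CNNNNNCAGTGN, its last base being any but G, followed by 5 bases that pair with the 5 before the loop (G with U allowed), in GENCODE M21 transcripts. The sites found are printed 5′ to 3′ on the strand of the gene, as DNA on GRCm38, with the loop in capitals. Those in the 5′ UTR of Fth1 and Slc40a1 come first, followed by the 4 found in the 3′ UTR of Tfrc.
Fth1 (chr19:9982738-9982754, + strand): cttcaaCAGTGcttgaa
Slc40a1 (chr1:45925471-45925487, - strand): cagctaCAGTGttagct
Tfrc (chr16:32631225-32631241, + strand): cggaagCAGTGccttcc
Tfrc (chr16:32631604-32631620, + strand): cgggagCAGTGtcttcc
Tfrc (chr16:32631669-32631685, + strand): cggagaCAGTGatctcc
Tfrc (chr16:32631716-32631732, + strand): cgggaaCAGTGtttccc

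Such a site was present in the 5′ UTR of 0.105% of 21877 coding genes and in the 3′ UTR of 0.457%. The other 7 genes had no match to these letters. The search required unbroken pairing next to the loop, so an IRE with a bulged or mismatched stem would be missed. The lack of a match, as for Slc11a2, therefore does not show that a gene has no IRE.

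Fth1 (ENSMUSG00000024661.7, chr19:9980598-9985098, plus strand), the ferroxidase subunit of ferritin, was the most abundant of the 10 genes. Fth1 was counted 279869, 280214 and 270554 times in Control and 281182, 295821 and 280442 times in LPS libraries. Normalised CPM were 5878, 6202 and 5864 in Control and 8379, 9063 and 8240 in LPS, with no overlap. The log2 fold change was 0.52 (SE 0.04, edgeR's adjusted p = 4.98e-10), under the fold criterion, and it stayed above 0 in all 16 alternatives (0.11 to 0.54). Of 3818 stretches of read length in its transcripts, 7 (0.18%) were shared with Gm6977, which had 36 to 64 counts.

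Slc40a1 (ENSMUSG00000025993.10, chr1:45908068-45926523, minus strand), which encodes the only known cellular iron exporter of vertebrates, overlapped between groups. Normalised CPM were 74.6, 71.5 and 77.2 in Control and 79.0, 71.4 and 80.3 in LPS, with LPS replicate 2 the lowest of the 6. The log2 fold change was 0.05 (SE 0.04, edgeR's adjusted p = 0.368), and it was 0.10 (adjusted p = 0.0483) without LPS replicate 2, -0.10 with upper quartile scaling and -0.36 with library size alone.

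Tfrc (ENSMUSG00000022797.16, chr16:32608920-32632794, plus strand) imports transferrin-bound iron. Its counts were 8753, 8127 and 8290 in Control and 7396, 6896 and 7536 in LPS libraries, whereas normalised CPM were 184, 180 and 180 in Control and 220, 211 and 221 in LPS. The groups did not overlap on either scale but their order was opposite. The log2 fold change was 0.27 with TMM (SE 0.03, edgeR's adjusted p = 1.14e-06) and -0.14 with library size alone (edgeR's adjusted p = 0.00093). Within libraries, the log2 ratio of Tfrc to Slc40a1 counts was 1.30, 1.33 and 1.22 in Control and 1.48, 1.57 and 1.46 in LPS, 1.16-fold higher in LPS (exact permutation p = 0.1, the smallest possible, and 0.133 after adjustment over the 4 pairs).

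The NRAMP transporters, Slc11a1 and Slc11a2, had log2 fold changes of similar size, and every LPS library held fewer raw counts of each than every Control library while every normalised CPM was higher. Slc11a1 (ENSMUSG00000026177.11, chr1:74375195-74386062, plus strand) encodes NRAMP1, which where functional moves metal out of the phagosome. Whether the protein is functional in the strain of these mice was not tested, so its values describe RNA alone. Slc11a1 was measured at 281, 267 and 264 normalised CPM in Control and 350, 346 and 339 CPM in LPS, and no values overlapped. Its log2 fold change was 0.35 with TMM (SE 0.03, edgeR's adjusted p = 5.11e-08) but -0.06 with library size alone (edgeR's adjusted p = 0.127). Slc11a2 (ENSMUSG00000023030.16, chr15:100387898-100425072, minus strand) encodes DMT1, which carries iron out of endosomes. It was measured at 87.7, 89.9 and 89.4 CPM in Control and 115, 120 and 108 CPM in LPS, with a log2 fold change of 0.36 with TMM (SE 0.04, edgeR's adjusted p = 1.57e-07) and -0.04 with library size alone (edgeR's adjusted p = 0.329). The log2 ratio of Slc11a2 to Slc11a1 counts was -1.61 ± 0.07 in Control and -1.59 ± 0.06 in LPS (SD, n = 3), with overlapping values and an exact permutation p = 0.7.

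**Figure D3:**
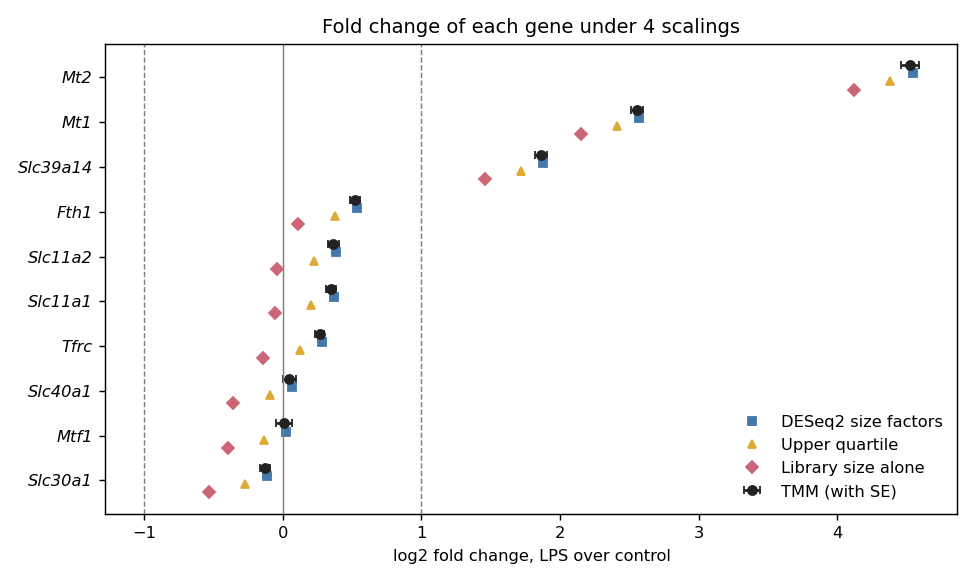
log2 fold change (LPS over Control) of the 10 genes with TMM scaling (black points, bars are SE) and with DESeq2 size factors, upper quartile scaling and library size alone, with dashed lines at -1 and 1. Mt1, Mt2 and Slc39a14 stay to the right of 1 under all 4 scalings, Fth1 stays above 0 and Slc30a1 below 0, whereas Slc11a1, Slc11a2, Tfrc, Slc40a1 and Mtf1 lie below 0 with library size alone.

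Levels of different genes were compared per kilobase of annotated exon, as counts per kilobase scaled to a constant library sum, as in TPM. No TMM factor was applied, so this scale serves to order genes within a group. On it Slc11a1 had a mean of 231 in Control and 214 in LPS, although its TMM-scaled CPM were higher in LPS. In Control libraries the order from highest to lowest was Fth1, Slc11a1, Mt1, Tfrc, Slc11a2, Slc30a1, Slc40a1, Mt2, Mtf1 and Slc39a14, and no neighbours overlapped in their ranges over 3 libraries. The closest neighbours were Slc11a2 and Slc30a1, with a ratio of means of 1.04. The levels per kilobase ran from 5454 ± 186 for Fth1 to 6.28 ± 0.354 for Slc39a14 (SD, n = 3), and with the longest transcript as the length in place of all exons Slc39a14 was at 10.6 and Mtf1 was the lowest at 7.25. In LPS libraries Mt1 took place 2 at 490 ± 7.41 and Mt2 place 4 at 211 ± 1.75, next to Slc11a1 at 214 ± 6.84, with which its range overlapped. Mtf1 was then the lowest at 5.58 ± 0.361. With the longest transcript as the length, Mt1 and Mt2 kept these places. In the lower part of the order 4 genes changed theirs in at least 1 group, Mtf1 in Control alone. For the metallothioneins this is a weak check, because both lengths were alike, at 1246 and 1085 bp for Mt1 and 588 and 511 bp for Mt2. A shorter main transcript of Mt1 would give it a higher level per kilobase. Slc30a1 went from place 6 to 7 in Control and from place 7 to 9 in LPS, Slc40a1 from 7 to 6 and from 8 to 7, Slc39a14 from 10 to 9 and from 9 to 8, and Mtf1 from 9 to 10 in Control. The Control level of Slc40a1 per kilobase was 26.2 with all exons and 48.9 with the longest transcript.

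**Figure D4:**
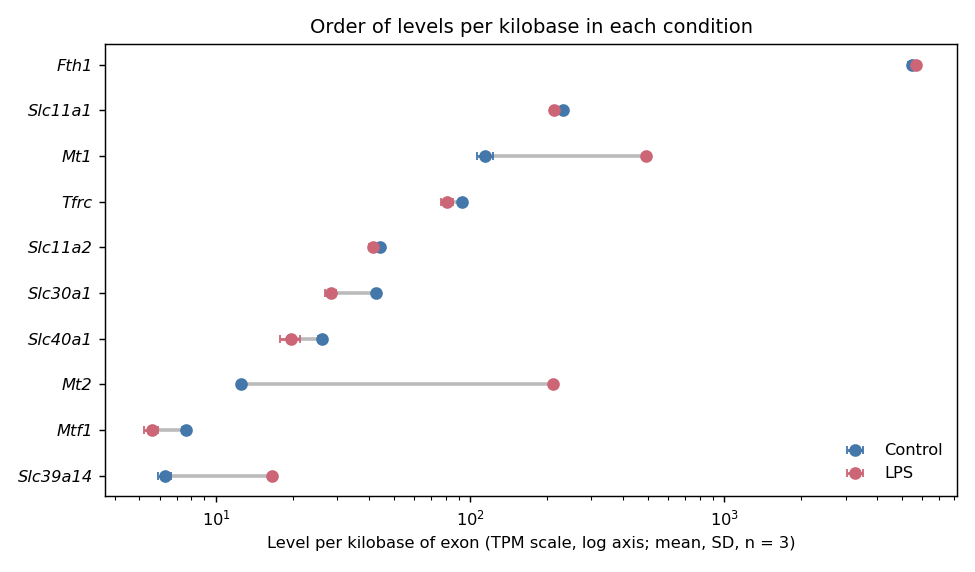
Level per kilobase of annotated exon on the TPM scale (log axis), of the 10 genes in Control and LPS libraries, as mean and SD over 3 libraries and ordered by the Control level. Mt2 moves from 12.6 to 211 and Mt1 from 115 to 490, which takes them from places 8 and 3 to places 4 and 2. No TMM factor was applied, and on this scale Slc11a1, Slc11a2 and Tfrc lie lower in LPS, whereas with TMM they lie higher.

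Other genes of iron and zinc handling were taken from lists of 65 genes, of which 47 were tested, 7 rose and 1 fell, beside 10.5% of all tested genes that rose and 10.4% that fell, and their median log2 fold change was 0.24 against -0.01 over all genes tested. With library size alone 5 of them passed both criteria in place of 8. Under that scaling 4177 of all 15687 tested genes passed both criteria, 1213 rising and 2964 falling, against 3277 with TMM. Among 9 tested genes of iron uptake and reduction, 3 rose, beside 10.5% of all genes tested. Steap4, a metalloreductase, was counted 8, 8 and 10 times in Control and 115, 109 and 155 times in LPS (log2 fold change 4.31, SE 0.23, edgeR's adjusted p = 8.63e-12), so that no library of either group came near the other group. The mitochondrial iron importers Slc25a37 (mitoferrin 1) and Slc25a28 (mitoferrin 2) rose from 27.8 ± 2.53 to 90.5 ± 2.14 CPM and from 22.5 ± 0.927 to 55.2 ± 3.32 CPM, with log2 fold changes of 1.71 and 1.29, and Slc25a28 was under the fold criterion, at 0.89, with library size alone. The genes of this list with the highest mean counts, Lrp1 and Trf, had log2 fold changes of 0.50 and 0.65 that did not reach the fold criterion.

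Among 17 tested genes of iron storage, export, haem and their regulation, 3 rose, beside 10.5% of all genes tested, and these 3 encode transcription factors. Nfe2l2, which encodes NRF2, an activator of Fth1 and other antioxidant genes, went from 242 ± 5.40 to 754 ± 16.4 CPM (log2 fold change 1.64, SE 0.03, edgeR's adjusted p = 8.98e-18). Bach1, a haem-sensitive repressor at the same elements, went from 237 ± 4.60 to 581 ± 6.08 CPM (log2 fold change 1.29) and was at 0.89 with library size alone. Spic, a factor of iron-recycling macrophages, had 49 to 70 counts in Control and 106 to 143 in LPS (log2 fold change 1.57). Ftl1, the ferritin light chain and the most counted gene of this list, had a log2 fold change of 0.12 with TMM and -0.28 with library size alone.

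Of 12 other tested Slc39a zinc importers, 0 rose and 1 fell, and of 5 other tested Slc30a exporters none passed both criteria, beside 10.5% of all tested genes that rose and 10.4% that fell. The one that fell, Slc39a2, was close to the lower limit of detection, being counted 12, 13 and 12 times in Control and 4, 4 and 1 times in LPS (log2 fold change -1.54, SE 0.49, edgeR's adjusted p = 0.0107). DESeq2 gave it an adjusted p of 0.0645, and leaving out LPS replicate 3 gave a log2 fold change of -1.12 (edgeR's adjusted p = 0.0637), so the call was lost in both. The most counted importers, Slc39a1 and Slc39a10, had log2 fold changes of 0.52 and 0.12, and the latter was -0.29 with library size alone. The most counted exporters, Slc30a5 and Slc30a7, had log2 fold changes of -0.18 and 0.38, and the latter was -0.02 with library size alone. Among all tested Slc39a genes, Slc39a14 was the single one that rose.

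Of 4 secreted metal-binding proteins, 1 rose, beside the same 10.5% of all genes. Lcn2, which encodes the siderophore-binding lipocalin 2, was counted 121, 118 and 120 times in Control and 196, 176 and 160 times in LPS (log2 fold change 1.04, SE 0.11, edgeR's adjusted p = 2.47e-07). It lay just past the fold criterion and was under it without LPS replicate 1 (0.96), with upper quartile scaling (0.90) and with library size alone (0.63). The zinc-binding calprotectin subunits S100a8 and S100a9, which are also neutrophil markers, had log2 fold changes of 0.40 and 0.37 with TMM and of -0.0032 and -0.04 with library size alone.

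**Figure D5:**
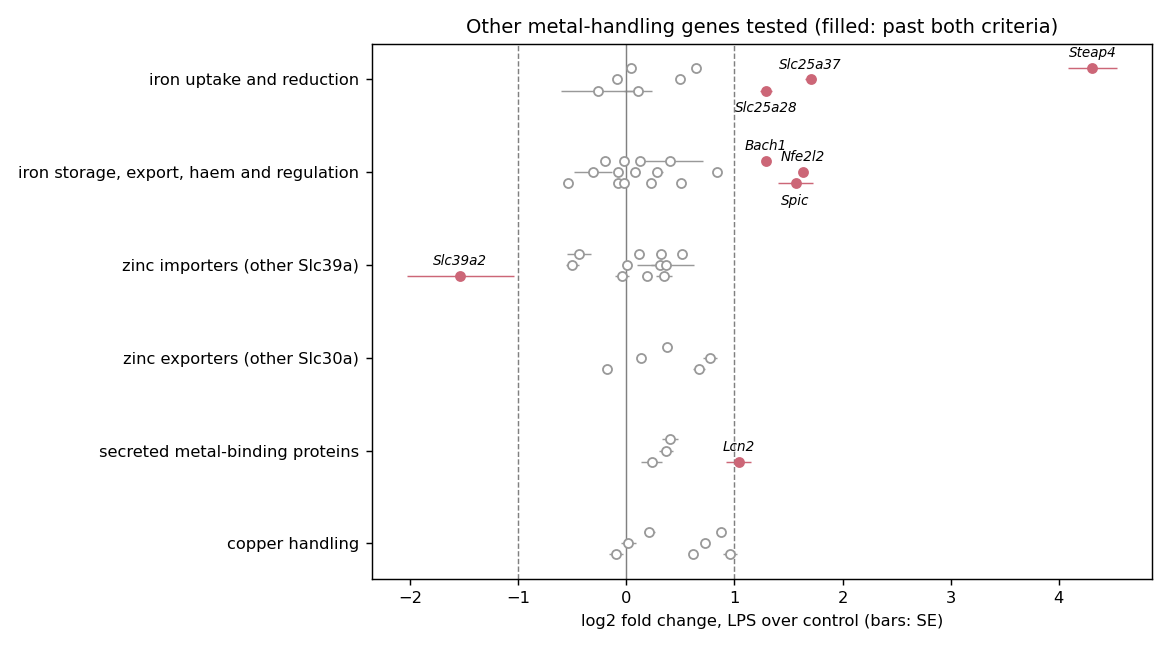
log2 fold change (LPS over Control, TMM scaling, bars are SE) of each tested gene in 5 lists of iron and zinc genes and in a list of copper genes, with filled points for genes past both criteria and dashed lines at -1 and 1. The 7 genes that rose lie to the right of 1, with Steap4 at 4.31 and Lcn2 at 1.04 as the ends of their range, and Slc39a2 is the 1 filled point on the left.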

How the data were processed

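Total RNA of 6 BMDM libraries (3 Control, 3 LPS, 1 h) was sequenced after a stranded total RNA preparation with globin depletion. The authors aligned the reads to GRCm38 with HISAT2 2.1.0, handled them with SAMtools 1.17 and deposited raw counts per gene from featureCounts 2.0.0, with no normalization. The annotation release, the strand setting and the treatment of reads with several matches are not given in the sources used here. Of the 55335 gene identifiers, 55154 matched a symbol in GENCODE M21 with the version removed, and 181 did not. Coordinates are counted from 1.

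From the counts, differences were computed with edgeR 4.0.16 in R 4.3.3 (filterByExpr, TMM, quasi-likelihood test with no block, Benjamini-Hochberg adjustment over 15687 genes). Depth was 37787611 to 41516330 counts per library, the common biological coefficient of variation was 0.0426, and at most 1.30% of well-counted genes had equal counts in any 2 libraries, so no library was a copy of another. Ratios within libraries were compared with exact permutation tests (scipy 1.17.1). The code was tested on simulated counts. Groups came from the labels, which number both groups 1 to 3 and call the numbers batches. Whether a Control and an LPS library of the same number form a pair is not stated. The main test and the permutation tests used no pairs. Deviations from the group means correlated at -0.01, 0.08 and 0.04 between libraries of the same number, and at -0.08 to 0.04 between those of different numbers. The replicate block was an alternative, as were 3 other scalings, 2 other filters, DESeq2 1.42.0, limma voom (limma 3.58.1), leaving out the 10 genes of highest mean count or each library in turn, and a test against a log2 fold change of 1.

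The 10 genes, the other lists and the tests were chosen with earlier results of these data known. Genes of the other lists are named when called by both criteria or among the 2 of highest mean count in their list, and the calprotectin genes and Mt3 and Mt4 as members of short lists. Overlapping genes are named for their shared bases. Promoter windows are RefSeq's on GRCm38.p6, and no protein sequence was used. A value for one marker gene is not reported here.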

Additional observations from a re-analysis of the deposited data

How the results depend on the processing

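Mt1, Mt2 and Slc39a14 passed both criteria under all 16 alternatives, and Fth1 and Slc30a1 kept their direction and their adjusted p under 0.05 in 15 of them, the exception being the test against a log2 fold change of 1. The others changed with the scaling, and Slc40a1 and Mtf1 also with other choices. With library size alone, 4 of the 10 genes were higher and 4 lower by the adjusted p, for which no share of all tested genes is given here. Under that scaling 5 other metal genes passed both criteria (8 with TMM), and 2964 genes fell over the whole table. The log2 fold changes turned to -0.056 for Slc11a1, -0.041 for Slc11a2, -0.36 for Slc40a1, -0.14 for Tfrc and -0.40 for Mtf1. With upper quartile scaling, which moved the median gene by -0.14, 2 of the 10 genes were lower by edgeR's adjusted p, Slc30a1 at -0.27 and Mtf1 at -0.13, and Slc40a1 was at -0.10 without passing it (0.0655). Mtf1 was at -0.017 with no filter beyond 1 count and at -0.0091 with 10 counts in every library, where fewer genes were tested and 2168 were called in place of 3277, with 1027 in place of 1624 falling. Against a log2 fold change of 1, 3 of the 10 genes were higher, 0 lower, and 922 genes fell over the whole table. Without LPS replicate 2, Slc40a1 was higher at 0.10 (edgeR's adjusted p = 0.0483). Leaving out 1 library gave Mtf1 log2 fold changes of -0.030 to 0.055 and the Slc11a2 to Slc11a1 log2 ratio a difference of -0.024 to 0.041. With the replicate block, Mt2 was at 4.52, Mt1 at 2.55 and Slc39a14 at 1.86, 3 of the 10 genes and 8 other metal genes were called, and no call of the 10 genes changed. With 3 libraries per group, a within-library ratio cannot reach a p under 0.1, and genes with under about 10 counts, such as Slc39a2, are the least precise.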

Other observations

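Copper genes, plotted with the other metal-handling genes but not described there, had log2 fold changes from -0.09 to 0.96. Of 8 listed genes 7 were tested, none passed both criteria, and 5 were higher by edgeR's adjusted p alone, beside 32.9% of all tested genes. Cox17, a chaperone for cytochrome oxidase, went from 10.1 ± 0.426 to 19.7 ± 0.769 CPM (SD, n = 3; log2 fold change 0.96, SE 0.06). The copper transporters Slc31a2 and Slc31a1 had log2 fold changes of 0.88 and 0.62, and Atp7a, the copper pump of the secretory pathway, had 0.73. Groups did not overlap for any of them, but the share of all tested genes without overlap was not counted. With library size alone the log2 fold changes were smaller, at 0.56 for Cox17, 0.47 for Slc31a2, 0.22 for Slc31a1 and 0.33 for Atp7a. Atox1, the chaperone that hands copper to Atp7a, had a log2 fold change of 0.21 with TMM and -0.19 with library size alone, and its groups overlapped. Ccs and Commd1 did not pass the adjusted p, at 0.02 and -0.09.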
